A study of Drosophila melanogaster
Mus musculus with 36 samples.

Results

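The miRNAs of the imprinted Dlk1-Dio3 domain were followed in 36 small RNA libraries made from mixtures of fly and mouse RNA. Members were chosen by name alone: every mouse entry whose hairpin carries one of 44 numbers that belong to this domain, with any letter, copy or arm. The rule found 92 arm entries among the 2038 entries of the files, of which 1666 are mouse and 372 fly. They come from 47 hairpins, and 45 of these hairpins are listed with both the 5p and the 3p arm. No fly entry carries any of the 44 numbers.

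In this domain the hairpins are cut from long noncoding transcripts made from the maternal chromosome, downstream of the noncoding gene Meg3, while the protein-coding genes Dlk1, Rtl1 and Dio3 are expressed from the paternal chromosome. One group of hairpins lies antisense to Rtl1, a retrotransposon-derived gene that some of its mature miRNAs cut, and the longest run of hairpins, from mir-379 to mir-410, is known for its expression in neurons and its regulation by neuronal activity. Embryonic stem (ES) cells express the domain, and clones of pluripotent cells are known to differ in whether it is silenced.

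The mouse RNA came from 1 ES cell clone, AN3-12. The fly RNA came from S2-S cells of genotype DmHen1-KO; FLAG-MYC-AthHEN1, which carry no working fly Hen1 gene and express the plant enzyme HEN1 with a FLAG-MYC tag. HEN1 methylates the last nucleotide of small RNAs. Mouse miRNAs end in an unmethylated nucleotide, which sodium periodate oxidises, so that the end can no longer be ligated to an adapter. Fly and mouse RNA were mixed at 1:1, 1:10, 1:100, 1:1000, 1:10000 and 1:100000, each mixture was split into an oxidised and an untreated share, and each of the 12 groups held 3 libraries. All groups share the same mouse cells and the same fly genotype. The mouse miRNAs therefore stand on the unmethylated side of the comparison at every ratio, and the question was how the members of this cluster behaved under oxidation and dilution. Set 1 used 25 µg of mouse RNA and a sequencing instrument other than that of sets 2 and 3, so the set is the batch that the labels give. The stated amount for sets 2 and 3 was 50 µg, with 25 µg per library. For set 1 no amount per library is stated, so whether the input per library differed is not known. The labels do not say that the sets came from separate cultures, so the p-values measure only the spread between these libraries, which may be technical.

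Untreated libraries held 326776 to 16619600 miRNA counts, with a median of 4345830. Oxidised libraries held 3654 to 1312980, with a median of 37848. The cluster itself held 2369 to 292717 counts in untreated libraries and 7 to 1340 in oxidised libraries, with medians of 61831 and 89. Levels below are therefore firm in untreated libraries and rest on few reads in oxidised ones. Markers of mouse ES cells, the miR-290 and miR-302 families, made up 66.9% to 90.0% of mouse counts in untreated libraries and 59.0% to 77.5% in oxidised ones, of counts other than mmu-mir-184, an entry set aside as described below. Neural markers made up 0.473% to 1.63% of untreated and 0.122% to 1.75% of oxidised mouse counts. Blood markers made up 0.319% to 0.992% and 0.135% to 1.23%, and fibroblast markers 0.0986% to 0.362% and 0.172% to 1.26%, in the same order. Muscle markers reached at most 0.0442% and the liver marker 0.00202%. The let-7 family, which marks differentiation, made up at most 0.168% in untreated libraries and 0.0597% to 9.74% in oxidised ones. The highest value was that of 1:1000 of set 2, against 0.185% and 0.159% in sets 1 and 3, and the oxidised median was 0.384%. In that library all mouse entries with a fly relative of the same name held 13.2%, against 4.39% and 4.73% in those sets. Whether fly reads were counted under let-7 was not tested. The part of these markers in the results below was not tested. Several libraries stood apart. In 3 oxidised libraries, 1:1 of set 2, 1:10 of set 2 and 1:100 of set 3, the cluster had 11, 7 and 9 counts. In oxidised 1:10000 of set 2 the cluster had 1340 counts in only 24 arms. In untreated 1:10000 of set 1 mmu-mir-127-3p alone made up 23.7% of the cluster's counts. Shares of the cluster and counts of called arms are also given without the 3 shallow libraries.

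One mouse entry was set aside before shares were read. mmu-mir-184 took 88.0% of all oxidised mouse counts at 1:1, 82.3% at 1:10, 42.7% at 1:100 and 1.38% at 1:100000, against 0.00154% to 10.2% in untreated libraries. A fly entry of the same number exists, dme-mir-184, and no member of the cluster has such a fly namesake. Other mouse entries with a fly relative of the same name stayed in, and they made up as much as 18.1% of the remaining oxidised mouse counts at 1:1, against at most 4.16% untreated. Shares are also given without them. Levels are given as CPM, which here means counts per 1000000 mouse counts other than mmu-mir-184.

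The cluster was expressed broadly in these ES cells. In such bulk RNA, fewer cells that express a miRNA and less of it per cell cannot be told apart. Between 77 and 90 of its 92 arms had a count in each untreated library, and 74 arms had one in all 18. The 10 most abundant arms made up 48.4% of the cluster's untreated counts. mmu-mir-376b-3p led, from a family whose precursors are known for adenosine-to-inosine editing. It ranged from 247 to 2280 CPM over the 18 untreated libraries, with a median of 1419. mmu-mir-127-3p, one of the miRNAs antisense to Rtl1 and known to cut its transcript, ranged from 937 to 2790 with a median of 1320. mmu-mir-136-5p, also antisense to Rtl1, had a median of 1122, with 361 as its lowest and 1673 as its highest value. The ranges of these 3 arms overlap, so their order differs between libraries.

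mmu-mir-541-5p followed with a median of 828 CPM and a range from 610 to 1206, and mmu-mir-495-3p had a median of 781 and ranged from 94.6 to 988. The remaining arms among the 12 most abundant were mmu-mir-300-3p, mmu-mir-377-3p, mmu-mir-665-3p, mmu-mir-543-3p, mmu-mir-381-3p, mmu-mir-494-3p and mmu-mir-369-3p. The 12 together held 54.6% of the untreated cluster counts, and all but 3 of them come from the run between mir-379 and mir-410. The lowest value of mmu-mir-376b-3p and of mmu-mir-495-3p was that of untreated 1:10000 of set 1, the library in which mmu-mir-127-3p had its highest value.

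**Figure D1:**
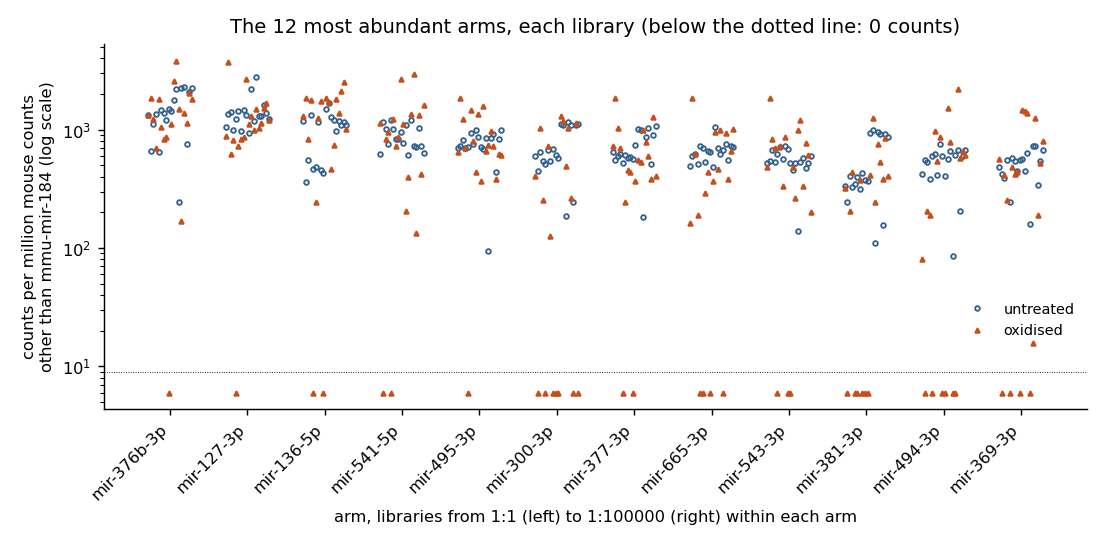
Level of the 12 most abundant arms of the cluster in each library, in CPM of mouse counts other than mmu-mir-184 on a log axis. Arms stand side by side with their libraries ordered from 1:1 on the left to 1:100000 on the right, open circles are untreated and triangles oxidised libraries, and libraries with no count lie below the dotted line. The untreated points of mmu-mir-136-5p run from 361 to 1673 and those of mmu-mir-127-3p from 937 to 2790, while the oxidised points scatter more widely and reach 0.

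By position in the domain, the 30 hairpin numbers from mir-379 to mir-410 held most of the reads, with a median of 70.8% of the cluster's counts over the untreated libraries and a range from 44.1% to 73.1%. The 6 numbers antisense to Rtl1 held a median of 18.5%, with a range from 16.9% to 40.5%. The 6 numbers ahead of them held 8.31%, and mir-341 and mir-370 together 1.78%. The lowest share of the mir-379 to mir-410 run and the highest share antisense to Rtl1 both belong to untreated 1:10000 of set 1. In the other 17 untreated libraries the share antisense to Rtl1 stayed between 16.9% and 27.5%. After oxidation the medians were 70.4%, 20.8%, 6.54% and 0.579%, in the same order. The 5p arms held a median of 27.1% of untreated and 28.2% of oxidised cluster counts.

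Over the dilution of the fly RNA, the cluster's mean share of untreated mouse counts other than mmu-mir-184 lay between 1.57% and 2.00%. At 1:1 it measured 1.57% ± 0.0858 (SD, n = 3 libraries), at 1:10 it measured 1.64% ± 0.185, and at 1:100 the value was 1.70% ± 0.101. The 3 further dilutions gave 2.00% ± 0.348 for 1:1000, 1.80% ± 0.541 for 1:10000 and 1.84% ± 0.397 for 1:100000. Over all 18 libraries the share was 1.76% ± 0.307 (SD) and ran from 1.18% to 2.32%. The sets differed in how the share moved. From the 3 ratios up to 1:100 to the 3 ratios from 1:1000 on, it went from 1.57% ± 0.135 (SD, n = 3 ratios) to 2.13% ± 0.161 in set 2 and from 1.76% ± 0.0886 to 2.11% ± 0.0551 in set 3. In set 1 it went from 1.57% ± 0.0209 to 1.40% ± 0.225. The groups of ratios did not overlap in sets 2 and 3. In set 1 only the mean was lower and the groups overlapped, at 1.55% to 1.59% and then 1.18% to 1.63%. The 1.18% was that of untreated 1:10000, which stood apart, while 1:1000 and 1:100000 of set 1 held 1.63% and 1.39%. Other groups of mouse miRNAs also stepped without overlap in sets 2 and 3. The mir-290 cluster of ES cells held 73.2% to 77.7% and then 67.3% to 69.8% in set 2. In set 3 it held 72.9% to 73.5% and then 66.8% to 68.2%. The mir-17-92 cluster and its paralogs held 6.08% to 7.49% and then 8.52% to 9.35% in set 2. In set 3 they held 7.09% to 7.62% and then 8.83% to 9.13%. Their part in the step of the share was not tested. This division of the ratios was made after the values were seen.

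Some of the abundant arms showed the step clearly. mmu-mir-136-5p measured 361 to 467 CPM at the first 3 ratios of set 2 and 978 to 1673 at the last 3. In set 3 it went from 434 to 551 up to 1086 to 1279. In set 1 the same arm measured 1152 to 1338 and then 1092 to 1500. The means thus differed by a factor of 2.97 in set 2, 2.41 in set 3 and 1.03 in set 1.

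The factor for mmu-mir-381-3p was 2.75 in set 2, 2.35 in set 3 and 0.648 in set 1. For mmu-mir-300-3p it was 2.07, 1.71 and 0.604, and for mmu-mir-376b-3p 2.43 in set 2 and 1.65 in set 3. These arms were higher at the last 3 ratios in sets 2 and 3 without overlap. In set 1 only their means were lower, and the ranges overlapped. For mmu-mir-381-3p they were 316 to 331 CPM and then 111 to 365. In all, 21 of the 60 tested arms stood higher at the last 3 ratios without overlap in both set 2 and set 3, and 7 stood lower. The same was true of 29.4% and 11.1% of the tested mouse entries, so the cluster's counts lie near the share of mouse miRNAs at large. In set 1, 4 arms stood higher without overlap, against 5.88% of mouse entries, and 11 lower, against 20.7%. The 3 arms mmu-mir-127-5p, mmu-mir-300-5p and mmu-mir-758-3p stood higher in all 3 sets, and mmu-mir-433-3p, mmu-mir-543-3p and mmu-mir-667-3p lower, against 2.4% and 5.01% of mouse entries. They are named here because of that pattern.

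A linear trend over the 6 ratios, fitted across all tested entries with edgeR's quasi-likelihood test and Benjamini-Hochberg adjustment, rose past the 0.05 threshold in untreated libraries for 3 of 60 arms and fell for none. Of all tested mouse entries, 1.74% rose and 0.871% fell. mmu-mir-300-5p rose by 0.26 on the log2 scale per 10-fold dilution (SE 0.081, adjusted p = 0.0171), from 30.7 to 38.0 CPM at 1:1 to 36.7 to 70.2 at 1:100000. mmu-mir-341-3p rose by 0.27 (SE 0.0998, adjusted p = 0.0490 by edgeR) and mmu-mir-485-5p by 0.27 (SE 0.0853, adjusted p = 0.0169 by edgeR). Under scaling to mouse counts other than mmu-mir-184, in place of the TMM factors described with the single arms, none passed in either direction. Without set 1, 6 arms rose and 9 fell. Without set 2, 1 rose, and without set 3, 0 rose. The share of mouse entries is not set beside these counts with a set left out.

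Oxidation left the cluster's share of the remaining mouse reads close to that in the untreated partner. Of mouse counts other than mmu-mir-184 the oxidised share at 1:1 was 1.74% ± 0.287 (SD, n = 3 libraries), that at 1:10 1.31% ± 0.0535 and that at 1:100 1.36% ± 0.187. The 3 further dilutions gave 1.99% ± 0.513 for 1:1000, 1.87% ± 0.237 for 1:10000 and 1.93% ± 0.359 for 1:100000. The 3 libraries at 1:10 held 1.37%, 1.27% and 1.30% in sets 1, 2 and 3, and the second of these, with 7 cluster counts, has a 95% Wilson interval from 0.616% to 2.59%. The 3 libraries at 1:100 held 1.29%, 1.57% and 1.21%, below the 1.59% to 1.78% of their untreated partners.

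As a log2 ratio of the oxidised to the untreated share in each pair, the change was −0.061 ± 0.28 (SD, n = 18), from −0.56 to 0.48, with 7 pairs higher and 11 lower. By ratio the mean was 0.13, −0.31, −0.33, −0.03, 0.10 and 0.07 from 1:1 to 1:100000. All 3 pairs were lower at 1:10 and at 1:100. At the other 4 ratios the mean lay within 1 SD of 0. Without the 3 shallow libraries the mean was −0.026 at 1:1, −0.36 at 1:10 and −0.22 at 1:100 (n = 2 pairs each), and −0.051 ± 0.24 over 15 pairs. No test was made of this share, since the members were chosen with results of these data known.

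**Figure D2:**
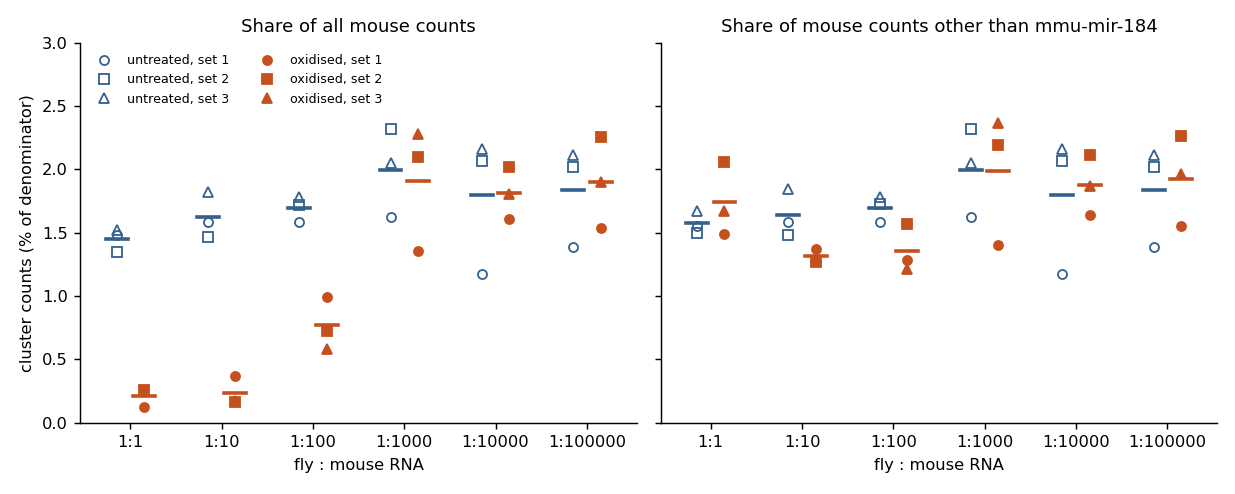
Share of the Dlk1-Dio3 cluster in mouse counts in each library, in percent, against the mixing ratio for untreated (open) and oxidised (filled) libraries, with 1 shape per set and bars at the means, of all mouse counts in one panel and of mouse counts other than mmu-mir-184 in the other. With mmu-mir-184 in the denominator the oxidised means are 0.212% at 1:1 and 0.236% at 1:10, and without it they are 1.74% and 1.31%, beside untreated means of 1.57% and 1.64%.

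The choice of denominator decides this picture at the fly-rich ratios. Of all mouse counts, the cluster's oxidised share was 0.212% at 1:1, 0.236% at 1:10 and 0.768% at 1:100, against 1.45%, 1.63% and 1.70% untreated. From 1:1000 on, where mmu-mir-184 held 3.86% or less on average, the oxidised share was 1.91%, 1.81% and 1.90%, against 2.00%, 1.80% and 1.84% untreated. The log2 ratio of the pairs was −2.85 at 1:1 and −2.88 at 1:10 with mmu-mir-184 included, and 0.053 at 1:100000. With all mouse miRNAs that have a fly relative of the same name left out of the denominator, the pair ratio was 0.29 ± 0.25 (SD, n = 3) at 1:1, higher in all 3 pairs, −0.24 ± 0.17 at 1:10 and −0.31 ± 0.21 at 1:100, lower in all 3 pairs of each.

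Against the fly miRNAs, which carry the methyl group, the cluster was lower after oxidation by about as much as the rest of the mouse miRNAs. The log2 ratio of cluster to fly counts was lower in the oxidised library of all 18 pairs, by a mean of −9.16 ± 1.88 (SD), with single pairs between −12.41 and −5.44. Mouse counts outside the cluster and other than mmu-mir-184 changed against fly counts by −9.10 ± 1.77. At 1:1 the means were −6.44 ± 1.22 (SD, n = 3) for the cluster and −6.58 for the other mouse counts. At 1:10 they were −9.36 ± 0.12 and −9.04, and at 1:100 −9.71 ± 0.66 and −9.37. The change was smaller at 1:1 than at 1:10 and 1:100, for the cluster and for other mouse counts alike. The values at 1:10000 and 1:100000, −10.46 ± 1.89 and −9.56 ± 3.13, rest on only 138 to 1823 fly counts per untreated library.

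**Figure D3:**
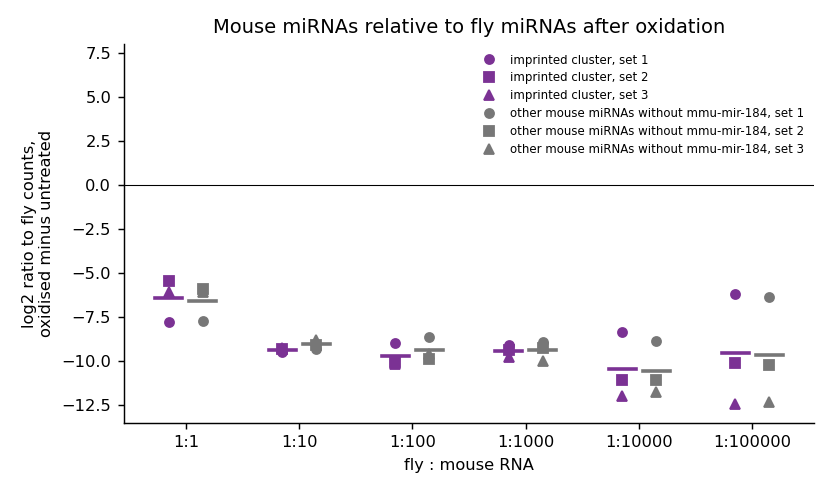
Log2 of summed counts over summed fly counts, oxidised minus untreated, in each pair of libraries against the mixing ratio, for the cluster and for other mouse miRNAs without mmu-mir-184, with 1 shape per set and bars at the means. All 18 cluster points lie between −12.41 and −5.44 and their means lie beside those of the other mouse miRNAs at each ratio, such as −6.44 and −6.58 at 1:1.

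Single arms were tested relative to the other mouse miRNAs, with libraries scaled to their mouse totals times factors from the trimmed mean of M values (TMM) of mouse entries. Of the 92 arms, 60 had enough counts, and they passed that filter through the deep untreated libraries. In the mean of the 6 differences between oxidised and untreated groups, 27 of the 60 arms, or 45%, were called lower and none higher by edgeR's quasi-likelihood test with Benjamini-Hochberg adjustment over all 576 tested entries. At an unadjusted p below 0.05, 37 arms were lower and 0 higher, and DESeq2 called 1 higher. Of all tested mouse entries 29.8% were called lower and 3.05% higher. Under this scaling the median of all tested mouse entries was −0.88 on the log2 scale, and the median of the cluster's arms was −1.20. Relative to the mouse median, 37 arms lay below and 23 above, and 59 of the 60 fitted values were below 0.

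Many of these fitted values depend on arms without a single oxidised read at some ratio. For 36 arms an oxidised count was present at every ratio, and 12 of them were called. The other 24 lacked one at 1 or more ratios, and 15 of them were called. A fitted fold against 0 counts depends on the prior count and is no bound. With each such ratio set to the value that 3 counts over the 3 oxidised libraries would give, the median of the 60 arms was −0.52 in place of −1.20. With libraries scaled to mouse counts other than mmu-mir-184 and no TMM factor, 11 arms were called lower, all among the 27, beside 6.97% of mouse entries, and the medians were −0.69 for the cluster and −0.36 for mouse entries. The 35 arms with 10000 or more untreated counts had medians of −0.63 and −0.22 under the 2 scalings, and the 25 arms below that −3.82 and −3.41. The medians of mouse entries cover entries of any abundance, and no mouse list of like abundance was set beside these arms. At 1:1 the median of the whole cluster lay above that of mouse entries, at −0.25 against −0.44. No test of these gaps was made. Without set 1 the count of arms called lower was 6, without set 2 it was 21 and without set 3 it was 25.

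**Figure D4:**
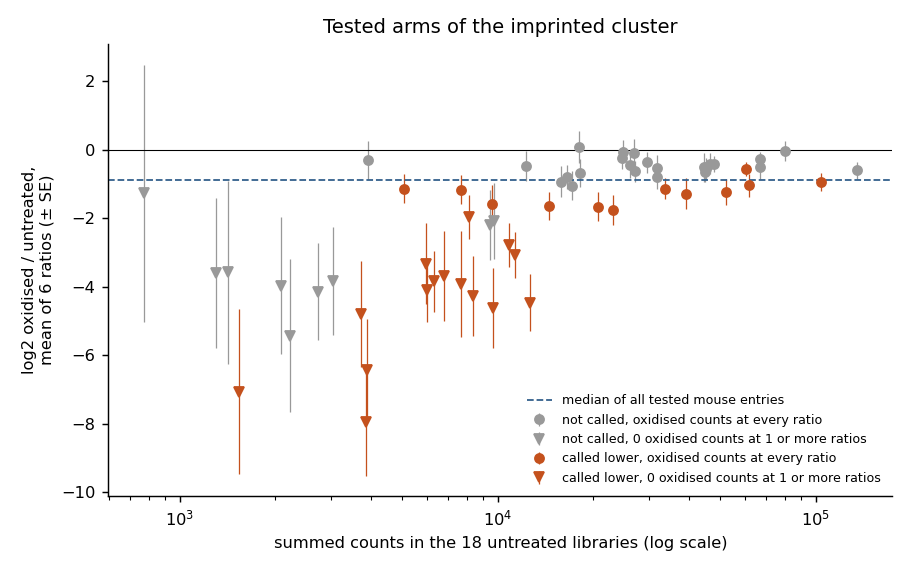
Fitted log2 change, oxidised against untreated, of the 60 tested arms of the cluster in the mean of the 6 ratios, against their summed counts in the 18 untreated libraries on a log axis. Bars are standard errors, arms called lower are coloured, the dashed line is the median of all tested mouse entries (−0.88), and triangles, which hold the far negative values down to −7.96, are arms without an oxidised count at 1 or more ratios.

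The miRNAs antisense to Rtl1 were lower in 6 of 8 tested arms, with a median of −1.15, or −1.02 with zeros at the bound, beside 29.8% of mouse entries lower. Without TMM factors and mmu-mir-184 the count was 3. mmu-mir-127-3p had 16 oxidised counts at 1:1, 11, 2 and 3 in the 3 sets, against 5596 untreated, and at most 84 in any oxidised library. Its level there was 891, 3736 and 619 CPM, against 1055, 1362 and 1403 untreated, so that the groups overlapped. In the mean of 6 ratios it fell by 0.95 (SE 0.26, adjusted p = 0.00497 by edgeR), close to the median of all tested mouse entries, −0.88. mmu-mir-434-3p, a miRNA of the same antisense group, fell by 1.13 (SE 0.30, adjusted p = 0.00379 by edgeR). Without TMM factors both calls were lost, with values of −0.34 and −0.67 and adjusted p of 0.355 and 0.165 by edgeR. mmu-mir-136-5p, its neighbour, did not pass the test. Its fitted value was −0.048 (SE 0.29, adjusted p = 1.00 by edgeR) and turned to 0.49 without TMM factors. It was the arm with the most oxidised reads of all, 402 counts against 79783 untreated.

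mmu-mir-431-5p and mmu-mir-433-3p, both antisense to Rtl1, had 24 oxidised counts each, of which 17 and 16 came from 1:100000 of set 2. mmu-mir-431-5p had 22 to 2692 counts in every untreated library and none in any oxidised library at 1:1 or 1:10000. It fell by 4.46 in the mean of 6 ratios (SE 0.83, adjusted p = 7.9e-05 by edgeR), and the same mean with zeros at the bound was −1.04. For mmu-mir-433-3p the fitted value was −2.78 and the value with zeros at the bound −1.22. mmu-mir-127-5p, the less abundant arm of the mir-127 hairpin, fell by 4.61 (SE 1.16, adjusted p = 0.00246 by edgeR), or by 1.00 with zeros at the bound.

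Ahead of the antisense group, 4 of 6 tested arms were lower, with a median of −1.46, or −0.94 with zeros at the bound, beside the same 29.8% of mouse entries. Without TMM factors and mmu-mir-184 the count was 3. mmu-mir-665-3p was the most abundant of them and lay lower in 13 of 18 pairs on the CPM scale and in 17 with TMM factors. It ranged from 479 to 1049 CPM in untreated libraries. In the oxidised libraries of set 1 it measured 162, 190, 293, 370, 987 and 383 CPM from 1:1 to 1:100000, on 1 to 7 counts each. It fell by 1.24 (SE 0.37, adjusted p = 0.00889 by edgeR), and without TMM factors the value was −0.70 with an adjusted p of 0.219. mmu-mir-673-5p had a fitted value of −3.07, and −1.34 with zeros at the bound. Of mir-341 and mir-370, which follow the antisense group, mmu-mir-341-3p fell by 1.64 (SE 0.40, adjusted p = 0.00164 by edgeR). It had 22 oxidised counts, in 7 of 18 libraries. At single ratios it was called only at 1:10000, with 2 oxidised against 2855 untreated counts (log2 −4.67). The other tested arm, mmu-mir-370-3p, had a fitted mean of −2.08 and was not called. It had no oxidised count at 1:1000, and its value at 1:10000 was 1.01.

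In the run from mir-379 to mir-410, 16 of 44 tested arms were lower, with a median of −1.05, or −0.45 with zeros at the bound. That is 36.4% of them, near the 29.8% of all mouse entries, and without TMM factors and mmu-mir-184 the count was 4. Its most abundant arms had fitted values from −1.04 to −0.28. mmu-mir-376b-3p had 1327, 665 and 1123 CPM in untreated libraries at 1:1 and 1322, 1868 and 1239 in oxidised ones, with overlap. Its fitted mean was −0.60 (SE 0.25, adjusted p = 0.056 by edgeR), that of mmu-mir-495-3p −0.28 and that of mmu-mir-541-5p −0.52, and none of these passed. Without TMM factors mmu-mir-495-3p and mmu-mir-541-5p stood at 0.13 and 0.081. mmu-mir-377-3p fell by 0.57 (SE 0.20, adjusted p = 0.0280 by edgeR) and mmu-mir-300-3p by 1.04 (SE 0.34, adjusted p = 0.0175 by edgeR). Without TMM factors both calls were lost, with values of −0.14 and −0.64 and adjusted p of 0.818 and 0.294 by edgeR. The values of mmu-mir-543-3p, mmu-mir-381-3p, mmu-mir-494-3p and mmu-mir-369-3p lay between −0.65 and −0.41 and did not pass. All but mmu-mir-300-3p lie above the mouse median of −0.88.

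The largest fitted values of that run came from minor arms. mmu-mir-409-5p had 3851 untreated counts, 9 to 951 per library, and 2 oxidised counts, both in 1:1 of set 3. Its fitted mean was −7.96, and with the 5 empty ratios at the bound it was 0.44, so the depth does not show a fall. For mmu-mir-377-5p the values were −7.06 fitted and 1.58 at the bound, for mmu-mir-382-3p −6.43 and 0.51, and for mmu-mir-300-5p −4.80 and 0.51. These 4 arms were called, and for each the fall was not detectable at this depth once zeros were replaced by the bound. The call of mmu-mir-300-5p was also lost with a replicate block by pair (adjusted p = 0.0502 by edgeR), that of mmu-mir-377-5p with a replicate block by set (adjusted p = 0.0662), and both without TMM factors (adjusted p = 0.151 and 0.0875). The same held by class of abundance: of 35 arms with 10000 or more untreated counts 12 were called lower, with a median of −0.63, and of 25 arms below that 15, with a median of −3.82, or −0.23 with zeros at the bound.

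Among 3p arms 15 of 36 were lower, with a median of −0.81, and among 5p arms 12 of 24, with a median of −2.37, beside 29.8% of mouse entries. Without TMM factors and mmu-mir-184 the counts were 5 and 6. With zeros at the bound the medians were −0.52 and −0.51.

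At single ratios the calls gathered at 1:10000. There 21 of 60 arms were lower, beside 21.4% of all mouse entries, and 12 of the 21 had no oxidised count. mmu-mir-127-3p was called lower there (log2 −2.14, SE 0.61, adjusted p = 0.00581 by edgeR), with 1481, 1027 and 1128 CPM oxidised and 2790, 1313 and 1296 untreated, so that the CPM overlapped. The fitted value also carries the TMM factors, 0.426 for the untreated library of set 1 and 1.63 to 1.95 for the oxidised libraries, and with the counts of the 3 libraries pooled on that scale the value was −1.09. Arms with no read at that ratio had upper bounds of −2.78 for mmu-mir-431-5p, −2.29 for mmu-mir-433-3p, −2.12 for mmu-mir-329-5p, −1.71 for mmu-mir-667-3p and −1.15 for mmu-mir-487b-3p. These bounds rest mostly on the uneven oxidised library of set 2. Its mouse total times its TMM factor was 119021, against 6695 and 30458 in sets 1 and 3. The bounds were not computed without it, and would be weaker at that depth. Without set 2, which holds the oxidised 1:10000 library with 1340 cluster counts, 6 arms were called at this ratio. At 1:1, 1:10 and 1:100 none was called lower, where 3, 2 and 4 passed an unadjusted p below 0.05 and 0%, 0.218% and 0.436% of mouse entries were called. DESeq2 called 4, 34 and 39 arms lower there, and its share of mouse entries is not set beside these counts. At 1:1000 and at 1:100000, 2 arms each were called lower, beside 3.7% and 2.18% of mouse entries, and all 4 calls are of arms without an oxidised count at that ratio. Without set 2 no arm was called at 1:1000, and without set 1 or set 3 none at 1:100000. mmu-mir-673-5p was one of the 4 (adjusted p = 0.00806 by edgeR at 1:1000), and mmu-mir-299a-3p was called at both ratios (adjusted p = 0.0341 and 0.0125).

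In the other direction none was called at 1:1, 1:10, 1:100, 1:10000 or 1:100000, where 1.74%, 2.4%, 2.83%, 3.7% and 2.4% of mouse entries were. The single call was mmu-mir-337-5p at 1:1000, with a log2 change of 3.58 (SE 1.04, adjusted p = 0.00976 by edgeR), beside 3.05% of mouse entries called higher at that ratio. It rests on 5 counts in the oxidised library of set 3. The libraries of sets 1 and 2 had 0, and without set 3 the call was lost. The arm had 8 oxidised counts over all ratios and 2 to 202 in each untreated library.

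Over the dilution, the oxidised level of 2 arms fell past the threshold and of none rose, beside 3.7% and 0.218% of mouse entries. mmu-mir-329-5p had 14 oxidised counts, 6 at 1:1, 2 at 1:10, 4 at 1:100, 0 at 1:1000 and at 1:10000, and 2 at 1:100000. It fell by 1.71 on the log2 scale per 10-fold dilution (SE 0.49, adjusted p = 0.00787 by edgeR). mmu-mir-299a-3p fell by 1.87 (SE 0.59, adjusted p = 0.0263 by edgeR) on 6 oxidised counts in all. Without set 1 neither arm passed, and without set 2 only 1 did.

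The number of arms that left a read was lower in the shallower oxidised libraries. An oxidised library held a count in 7 to 57 arms, with a median of 29.5, against 77 to 90 in untreated libraries. No arm was seen in all 18 oxidised libraries, and 21 arms were seen in none. The most widely seen were mmu-mir-376b-3p, mmu-mir-127-3p and mmu-mir-495-3p, each in 17 of 18. After every library was thinned to 1536 mouse counts, the expected number of arms with 1 or more counts was 3.12 ± 1.10 (SD, n = 3) oxidised against 16.1 ± 0.726 untreated at 1:1 and 17.7 ± 2.28 against 18.2 ± 2.99 at 1:100000. With 3 or more counts required it was lower after oxidation by 1.28, 1.63 and 1.54 arms at 1:1, 1:10 and 1:100, and higher by 0.13, 0.54 and 0.48 at the other 3 ratios. These mouse counts include mmu-mir-184, so the depth left for the cluster was not equal. With it set aside and libraries thinned to 532 counts, the arms with 1 or more counts were 8.26 ± 1.57 (SD, n = 3) oxidised against 7.30 ± 0.362 untreated at 1:1, 6.44 ± 0.361 against 7.54 ± 0.761 at 1:10 and 6.35 ± 1.08 against 7.81 ± 0.447 at 1:100. With 3 or more counts required, under 1 arm was expected in any library at that depth, too few to compare.

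**Figure D5:**
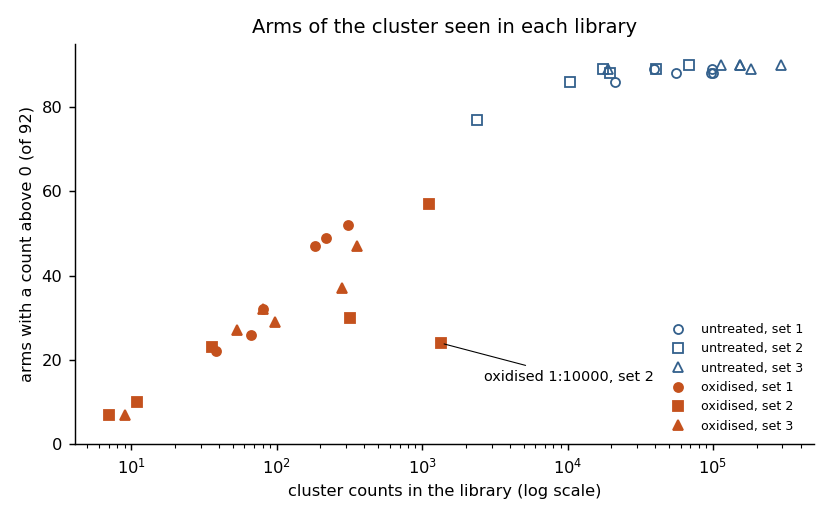
Number of cluster arms with 1 or more counts in each library against the cluster's counts in that library on a log axis, with open symbols for untreated and filled symbols for oxidised libraries and 1 shape per set. Untreated libraries lie between 77 and 90 arms, and oxidised libraries rise from 7 arms in the shallowest to 57 in 1:100000 of set 2, with 1:10000 of set 2 at 24 arms.

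Some arms owe most of their oxidised reads to the library 1:10000 of set 2, whose 1340 cluster counts average 55.8 per arm seen, while 1:10000 of set 3 had 281 counts in 37 arms. mmu-mir-541-5p had 188 of its 303 oxidised counts there, or 62.0%. mmu-mir-154-5p had 79 of 97, or 81.4%, and mmu-mir-370-3p, singled out after its values were seen, 115 of 138, or 83.3%. The same library held none of the reads of mmu-mir-665-3p, which had 1331 counts in its untreated partner.

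Arms abundant in untreated libraries also left the most oxidised reads. Over all 92 arms, Spearman's rho between summed oxidised and summed untreated counts was 0.967, and by ratio it was 0.880, 0.893, 0.893, 0.864, 0.862 and 0.933 from 1:1 to 1:100000. At 1:10000 it was 0.850 without set 2, which holds the uneven library. Between untreated 1:1 and the other untreated ratios it was 0.995, 0.995, 0.991, 0.986 and 0.987. These values run across arms of the same libraries, include the arms at 0, and carry no p.

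The balance between the arms of a hairpin was compared on pooled reads. In the mir-127 hairpin, the 3p arm made up 91.5% of untreated and 93.3% of oxidised reads (95% Wilson interval 89.9% to 95.6%). It made up 95.5% and 97.2% in mir-376b and 94.3% and 94.8% in mir-300. In mir-541 the 3p arm was the minor one, at 2.08% and 1.62%. In mir-136 it made up 23.6% of untreated and 17.6% of oxidised reads (interval 14.5% to 21.3%), and in mir-154 72.5% and 53.8% (47.1% to 60.4%). The mir-154 value carries the 79 reads of mmu-mir-154-5p in the single library named above. The intervals cover counting error only, and no test between libraries was made.

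Other groups of mouse miRNAs were counted in the same way, beside the 29.8% of mouse entries called lower. In the mean of 6 ratios 10 of 14 tested arms of the mir-290 cluster, the leading miRNAs of mouse ES cells, were lower, with a median of −0.63. Of other miRNAs of the same imprinted locus that the rule does not name, 3 of 15 entries were tested and 2 were lower, with a median of −4.46. Of 6 tested arms of other imprinted miRNAs 2 were lower, with a median of −1.14. Without TMM factors and mmu-mir-184, none of these 3 groups had an arm called lower, and the medians were −0.10, −4.08 and −0.50. Of 31 tested arms of the mir-17-92 cluster and its paralogs 16 were lower, or 51.6%, with a median of −0.83. Of 13 tested arms of neural markers 5 were lower, with a median of −2.84. Without TMM factors and mmu-mir-184 these counts were 3 and 2, and the medians −0.42 and −2.49. Of fibroblast markers 1 of 5 tested arms was lower, and of blood markers 1 of 5. Of the let-7 family, whose levels rise on differentiation, 3 of 10 tested arms were called higher and 1 lower, beside 3.05% and 29.8% of mouse entries. Whether fly reads were counted under let-7 was not tested here either. No marker of muscle or of liver was tested, since none had enough counts. The difference between the cluster and any of these groups was not tested.

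The 32 arms that were not tested, 22 of them 5p and 10 of them 3p, had 1 to 1095 untreated counts each. They held 0.829% of the untreated cluster counts and 21 oxidised counts in all. Of the cluster's 92 arms 29 carried a fractional value in at least 1 library, among them mmu-mir-376b-3p in 14 libraries, mmu-mir-381-3p in 13 and mmu-mir-136-5p in 12. Reads of near-identical arms may have been shared between entries, so the split within families such as mir-376 is uncertain.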

How the data were processed

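Small RNAs of 18 to 30 nt from fly and mouse RNA mixtures were measured in 36 libraries, 3 in each of 12 groups of treatment by mixing ratio. The deposited files hold expected counts per miRNA arm, estimated read counts that can be fractional and are not scaled to depth, per the file headers; 80.0% to 98.1% of a library's values were whole numbers (tolerance 0). Tools listed by the submitters' processing notes are HTSeq 0.6.1p1 and cutadapt 1.2.1, and the listed builds are dm3 and mm10, with no roles stated. For the aligner and the rule for sharing reads, the answer is not given in the sources used here. The files of set 1 list 1781 entries and the others 2038, and entries missing from set 1 were set to 0 (2 of them members, at most 1 count elsewhere).

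The members, the comparison lists and the named arms' rule were chosen with earlier results of these data known, and the positional groups were made after the files were read. Counts were rounded and fitted with edgeR 4.0.16 in R 4.3.3 (quasi-likelihood, 36 libraries, 12 group means, filterByExpr with minimum count 10 and minimum total 15, libraries scaled to mouse totals times TMM factors of mouse entries, from 0.126 to 2.15). This left 576 entries, 459 of them mouse and 60 of the 92 members, with Benjamini-Hochberg adjustment over all 576 and a threshold of 0.05. DESeq2 1.42.0 was an alternative. Shares, pair differences and thinning (hypergeometric) were computed in Python 3.11.15 with pandas 2.3.3 and SciPy 1.17.1, and figures were drawn with matplotlib 3.10.9. The fit was also run on simulated data with the same spread for every entry, no set effect and the library scaling given. That run cannot test the choice of scaling. Floors of 3 counts and 95% Wilson intervals hold counting error alone, because PCR copies of a molecule are counted as separate reads.

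Named arms were the 12 most abundant, up to 6 called per direction in the mean of 6 ratios by size, those with a called trend, both arms of the 6 most abundant hairpins with both arms tested, and those called at a single ratio. Others were picked after their values were seen. Set 1 carries no replicate number in the labels and was taken as replicate 1. The labels say that each mixture was split, which pairs the libraries of a set and ratio. Over the 300 most abundant entries the median correlation of deviations within the 18 pairs was 0.217, 14 pairs exceeded 0.1, and in 12 the partner correlated best. No 2 libraries were copies: over 630 pairs, chi-square per degree of freedom was at least 2.89. Alternatives were other scalings, no filter, DESeq2, each ratio fitted alone, replicate blocks, each set left out, and, chosen after seeing the data, scaling without mmu-mir-184, shares without mouse miRNAs that have fly relatives, and leaving out the libraries that stood apart.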

Additional observations from a re-analysis of the deposited data

Results flagged for a closer look

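The trend of mmu-mir-329-5p over the dilution differed between oxidised and untreated libraries by −1.96 on the log2 scale per 10-fold dilution (SE 0.495, adjusted p = 0.0338 by edgeR's quasi-likelihood test for the difference of the 2 slopes), on 14 oxidised counts over 18 libraries.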

How the results depend on the processing

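Counts of arms below are given without the share of mouse entries called under each setting. They show how the calls depend on processing and are no result about the cluster. The same holds for the counts above under DESeq2 or with a set left out. The count of arms lower in the mean of the 6 ratios (27) was 55 with scaling to total counts, 57 with DESeq2, 52 without a filter on low counts and 11 with scaling to mouse counts other than mmu-mir-184. With a replicate block by set it was 29 (25 of the 27 among them) and with a replicate block by pair 21, all among the 27. Leaving out 1 set gave 6 to 25. DESeq2 called 1 arm higher in that mean. DESeq2 called 4, 34, 39, 34, 49 and 40 arms lower from 1:1 to 1:100000, against 0, 0, 0, 2, 21 and 2, and 0 higher at 1:1000. Scaling to total counts gave 21 lower at 1:1, 45 at 1:10, 1 at 1:100 and 0 at 1:100000, 1 rising untreated trend, 27 rising and 0 falling oxidised trends. Without a filter the counts lower were 2 at 1:10, 1 at 1:100, 6 at 1:1000 and 1 at 1:100000, with 0 higher at 1:1000 and 1 falling oxidised trend. With each ratio fitted alone they were 1 at 1:10, 1 at 1:100 and 0 at 1:1000, 1:10000 and 1:100000, with 0 higher at 1:1000. The block by pair gave 0 higher and 1 lower at 1:1000 and 0 lower at 1:100000, and the block by set 1 lower at 1:100; the blocks moved no other count by more than 1.5 times. Scaling without mouse miRNAs that have fly relatives gave 1 lower at 1:1000 and at 1:100000. Scaling without mmu-mir-184 gave 1 lower at 1:1000, 10 lower and 1 higher at 1:10000, 0 lower at 1:100000 and 0 rising untreated trends. Without untreated 1:10000 of set 1 there were 1 lower at 1:100, 4 lower at 1:1000 and 1 higher at 1:10000, and without the 3 shallow oxidised libraries 1 lower at 1:100000. Leaving out 1 set gave 0 to 1 lower at 1:10, 0 to 1 higher and 0 to 2 lower at 1:1000, 0 to 2 higher and 6 to 25 lower at 1:10000, 0 to 1 lower at 1:100000, 0 to 6 rising and 0 to 9 falling untreated trends, and 0 to 1 rising and 0 to 3 falling oxidised trends. The causes were not tested.

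Signs turned without TMM factors and mmu-mir-184 for mmu-mir-136-3p (0.23), mmu-mir-136-5p (0.49), mmu-mir-369-3p (0.043), mmu-mir-495-3p (0.13), mmu-mir-541-5p (0.081) and mmu-mir-543-3p (0.026), and under DESeq2 for mmu-mir-337-5p (0.19). mmu-mir-136-5p also ranged from −0.55 to 0.11 with 1 set left out (0.087 without set 1), and stood at 0.016 without the shallow libraries and at 0.11 without untreated 1:10000 of set 1. None of these 7 arms had passed the test in that mean.

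The log2 pair ratio of the cluster's share of all mouse counts (−2.85, −2.88, −1.17, −0.09, 0.05, 0.05, mean −1.15) became 0.13, −0.31 and −0.33 at 1:1 to 1:100 and −0.061 in the mean without mmu-mir-184. As a share of total counts it was −5.29, −5.74, −3.24, −1.15 and −0.39 at 1:1 to 1:10000, with a mean of −2.65. Relative to fly counts it was −6.44, −9.36, −9.71, −9.41, −10.46 and −9.56, with a mean of −9.16. Without mouse miRNAs that have fly relatives it was 0.29, −0.24 and −0.31 at 1:1 to 1:100 and −0.000741 in the mean. Arms seen at equal depth in all mouse counts, mmu-mir-184 included, differed by −12.96, −13.94, −8.41, −1.81, −1.40 and −0.51 with 1 count required. With 10 counts required the differences were −4.54e-05, −0.00013 and −0.000147 at 1:1 to 1:100 and 0.000608 at 1:100000. Without mmu-mir-184, at 532 counts, the differences with 3 counts required were −0.053, −0.075, −0.11 and 0.076 at those ratios, and with 1 count required 0.95, −1.10 and −0.36 at 1:1, 1:10 and 1:1000. Oxidised libraries, with a median of 89 cluster counts, limit every statement on single arms.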
